A study of Danio rerio with 7 samples.

Results

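The visual opsins examined here are rho (ENSDARG00000002193), the rod opsin, and 4 cone opsins: opn1sw1 (ENSDARG00000045677) of ultraviolet cones, opn1sw2 (ENSDARG00000017274) of blue cones, and opn1lw2 (ENSDARG00000044861) and opn1lw1 (ENSDARG00000044862) of red cones. They were chosen by name and Ensembl identifier, 5 of the 25049 genes in the count table, and all 5 were among the 23716 genes left after a filter on low counts. Poly(A) RNA was sequenced from wild-type zebrafish larvae, whole bodies, kept at 6% O2 (hypoxia, 3 libraries) or at atmospheric 20.9% O2 (normoxia, 4 libraries) between 81 and 96 hours after fertilization. Each library came from a separate pool of 30 larvae. Because whole larvae were used, photoreceptors are a small part of each sample. The study's methods mention a pigment blocker, N-phenylthiourea, only as added when required, and do not say whether these pools received it. They state that carbon dioxide was held at a constant level in the hypoxia workstation. No carbon dioxide level is given for the normoxia pools, and no lighting for either group, so oxygen may not be the only difference.

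Libraries held 67083058 to 69920400 counts in hypoxia and 70275114 to 78235938 in normoxia, so the 4 abundant opsins rested on 41841 to 227900 counts per library and opn1lw1 on 126 to 211. A gene was called where the adjusted p of edgeR's quasi-likelihood test was under 0.05, and levels are given as CPM, the depth-scaled count unit, with library sizes scaled by TMM factors. Among all 23716 genes tested, 49.7% were called, 24.6% higher and 25.1% lower in hypoxia, and the median log2 fold change was -0.004. Scaling by library size alone moved that median to -0.10.

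A visual opsin is a receptor protein that binds a form of vitamin A, 11-cis retinal, in the outer segment of a photoreceptor, and the type of opsin a cell makes sets the colours it responds to. Light turns the opsin on, it activates the G protein transducin, transducin releases a phosphodiesterase that breaks down cyclic GMP, and cyclic nucleotide-gated channels close. Kinases and arrestins then shut the opsin off, and the retinoid cycle restores its chromophore. Zebrafish have rods and ultraviolet, blue, green and red cones, and in larvae cones carry most of the vision while rods are still being added.

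Of the 5 opsins, rho alone passed the test. It was higher in hypoxia, against 24.6% of all genes called in that direction, and none of the 5 was called lower, against 25.1% of all genes. None of the 5 passed the additional threshold of an absolute log2 fold change over 0.6, which 3.07% of all genes passed upward and 7.45% downward.

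The rod opsin rho stood at 1297, 1499 and 1520 CPM in hypoxia replicates 1 to 3, against 1144, 1281, 1176 and 1259 CPM in normoxia replicates 1 to 4. Every hypoxia library lay above every normoxia library, an arrangement found in 26.3% of all genes (26.5% showed the opposite one), and the lowest hypoxia value was close to the highest normoxia value. The means were 1439 ± 123 CPM in hypoxia (SD, n = 3) and 1215 ± 65.8 CPM in normoxia (SD, n = 4). This rise was 1.18-fold, a log2 fold change of 0.24 (SE 0.063, 95% confidence interval 0.105 to 0.383, edgeR quasi-likelihood test, Benjamini-Hochberg adjusted p = 0.00819). With cyclic loess normalization, which removes differences that depend on abundance, and limma, the log2 fold change of rho was 0.076 and the call was lost (Benjamini-Hochberg adjusted p = 0.237). In bulk RNA of whole larvae, more rods and more rho RNA per rod cannot be told apart, and the same holds for every cell type described here.

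**Figure D1:**
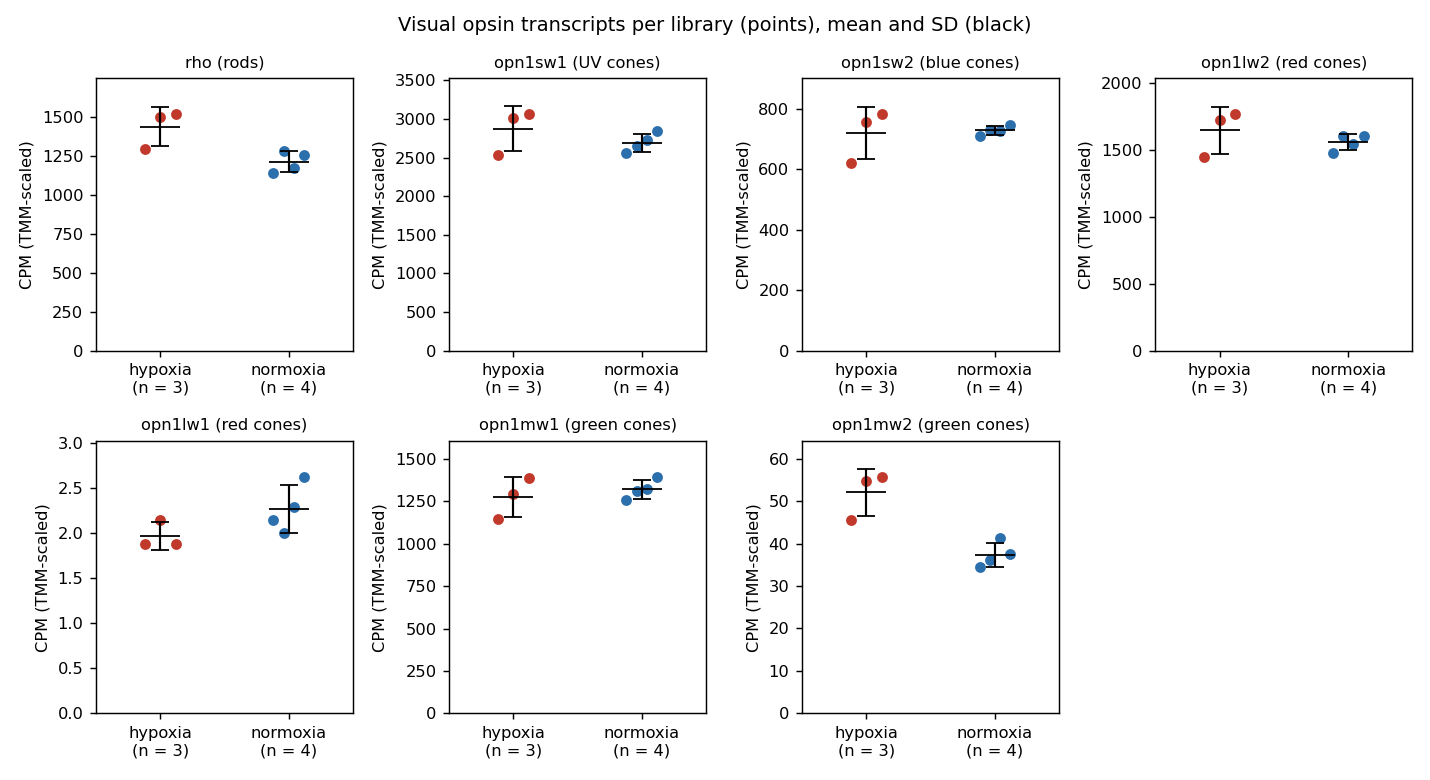
CPM (TMM-scaled, vertical axis from 0) of 7 visual opsins in the 3 hypoxia (red) and 4 normoxia (blue) libraries, with the mean and SD in black. The groups separate for rho and opn1mw2, with every hypoxia point above every normoxia point, and overlap for the other 5.

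The ultraviolet cone opsin opn1sw1 stood at 2538, 3014 and 3064 CPM in hypoxia, against 2563, 2645, 2720 and 2838 CPM in normoxia. Hypoxia replicates 2 and 3 were above all normoxia libraries and hypoxia replicate 1 below all of them, so that the groups overlapped. The log2 fold change was 0.094 (SE 0.066, 95% confidence interval -0.052 to 0.239, edgeR quasi-likelihood test, Benjamini-Hochberg adjusted p = 0.262). Its interval thus spans values from slightly lower to about as large a rise as the estimate for rho.

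The blue cone opsin opn1sw2 was measured at 621, 756 and 782 CPM in hypoxia, against 710.4, 729.9, 727 and 746 CPM in normoxia. The 4 normoxia libraries lay close together and the hypoxia libraries fell on both sides of them. The means were 719.7 ± 86.7 CPM in hypoxia (SD, n = 3) and 728 ± 14.7 CPM in normoxia (SD, n = 4), a log2 fold change of -0.017 (SE 0.070, 95% confidence interval -0.171 to 0.136, edgeR quasi-likelihood test, Benjamini-Hochberg adjusted p = 0.857). Under cyclic loess normalization with limma it was called lower, at -0.16 (Benjamini-Hochberg adjusted p = 0.0396). In the RefSeq annotation of the GRCz12tu assembly the span of this gene overlaps hcfc1a and a further locus. Reads were counted on another assembly, GRCz11, with Ensembl genes, where overlap was not examined. The setting for strand in the counting is not given in the sources used here. Whether such an overlap affected the counts of opn1sw2 is therefore not known.

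The red cone opsins are a pair of near-identical neighbouring genes, of which opn1lw2 is the one used in most of the larval retina. Its levels were 1445.5, 1722 and 1769 CPM in hypoxia, against 1480, 1605, 1541 and 1605 CPM in normoxia. As for opn1sw1 and opn1sw2, hypoxia replicate 1 was below the normoxia libraries and hypoxia replicates 2 and 3 were above them. The log2 fold change was 0.079 (SE 0.067, 95% confidence interval -0.068 to 0.226, edgeR quasi-likelihood test, Benjamini-Hochberg adjusted p = 0.352).

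The other red cone opsin, opn1lw1, which appears later and at the margin of the retina, had 127, 137 and 126 counts in hypoxia, against 156, 155, 171 and 211 counts in normoxia. These were 1.88, 2.15 and 1.88 CPM in hypoxia, against 2.15, 2.003, 2.29 and 2.63 CPM in normoxia, and the groups overlapped. Its log2 fold change was -0.20 (SE 0.128, 95% confidence interval -0.486 to 0.077, edgeR quasi-likelihood test, Benjamini-Hochberg adjusted p = 0.208), the widest interval of the 5. Its counts amounted to 0.106 to 0.130% of those of opn1lw2 in hypoxia and 0.125 to 0.164% in normoxia. How reads that match both copies were counted is not given in the sources used here, so the values of opn1lw1 are uncertain.

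One library decided several of these results. Hypoxia replicate 1 was the lowest hypoxia library for rho, opn1sw1, opn1sw2 and opn1lw2. Without it, opn1sw1 and opn1lw2 were also called higher, at log2 fold changes of 0.18 (adjusted p = 0.0102) and 0.17 (adjusted p = 0.0121), and opn1sw2 moved to 0.080 (adjusted p = 0.147), all by the edgeR test with Benjamini-Hochberg adjustment. The count of opsins called higher was then 3 in place of 1. The call for rho held when any single library was left out, with log2 fold changes between 0.20 and 0.31.

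**Figure D2:**
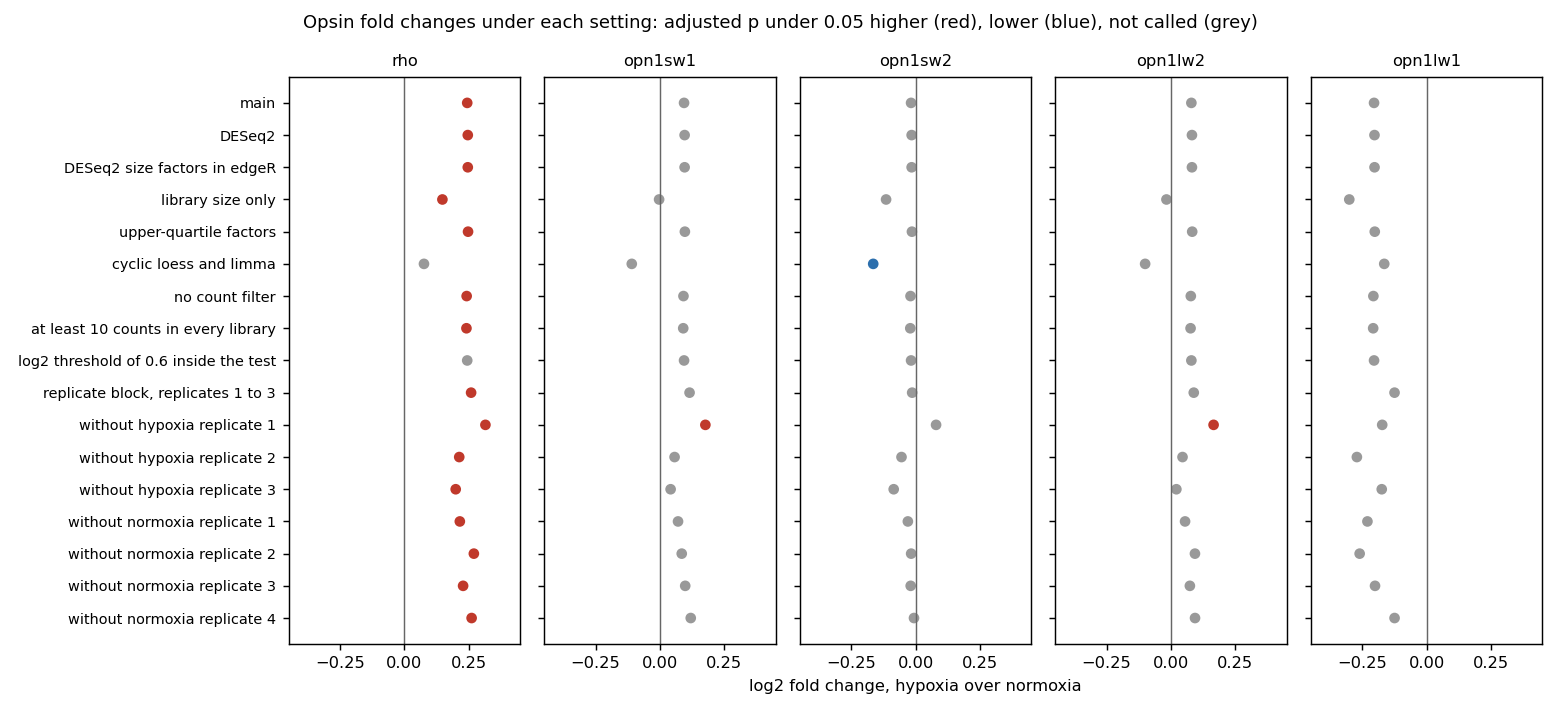
Log2 fold change (hypoxia over normoxia, horizontal axis) of the 5 opsins under the main analysis and 16 alternatives (rows), with calls at adjusted p under 0.05 in red (higher) and blue (lower). Values of rho run from 0.076 to 0.31 and are called in all but 2 alternatives. Those of opn1sw1, opn1sw2 and opn1lw2 lie on both sides of 0.

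The green cone opsins, 4 neighbouring genes of which opn1mw1 and opn1mw2 are used first in the larva, complete the set of visual opsins. The abundant copy opn1mw1 had 1147, 1293 and 1385 CPM in hypoxia, against 1257, 1310.3, 1321.5 and 1395 CPM in normoxia, overlapping groups with a log2 fold change of -0.051 (SE 0.063, 95% confidence interval -0.190 to 0.088, edgeR quasi-likelihood test, Benjamini-Hochberg adjusted p = 0.532). That value turned to 0.021 without hypoxia replicate 1, and with cyclic loess normalization and limma opn1mw1 was called lower, at -0.22 (Benjamini-Hochberg adjusted p = 0.00649). The second copy, opn1mw2, had 45.6, 54.7 and 55.8 CPM in hypoxia, against 34.4, 36.2, 41.2 and 37.5 CPM in normoxia. All hypoxia libraries were above all normoxia libraries, and opn1mw2 rose 1.39-fold (log2 fold change 0.48, SE 0.078, edgeR quasi-likelihood test, Benjamini-Hochberg adjusted p = 0.000612). Relative to opn1mw1, the counts of opn1mw2 were 3.98, 4.23 and 4.03% in hypoxia, against 2.74, 2.76, 3.12 and 2.69% in normoxia, a description chosen after the values were seen. The other copies were near the floor, with 9 to 13 counts of opn1mw3 and 0 to 3 of opn1mw4 per hypoxia library, against 7 to 15 and 0 to 10 per normoxia library, and were not tested. As with the red copies, reads shared between green copies could have been assigned to either.

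The 9 visual opsins together took 0.693, 0.793 and 0.824% of all counts in hypoxia, against 0.744, 0.775, 0.780 and 0.809% in normoxia, overlapping groups with the widest spread in hypoxia. The make-up of this opsin pool does not depend on the scaling between libraries. The share of rho was 18.3, 18.0 and 17.7% in hypoxia, against 15.9, 16.8, 15.6 and 16.0% in normoxia. Its share was above that of normoxia in each hypoxia library, hypoxia replicate 1 included. The share of opn1sw2 was 8.75, 9.06 and 9.12% in hypoxia, against 9.88, 9.59, 9.66 and 9.46% in normoxia, lower in each hypoxia library. This was not particular to opn1sw2. The share of the green cone opsin opn1mw1 was 16.17, 15.5 and 16.15% in hypoxia, against 17.48, 17.22, 17.55 and 17.69% in normoxia, also without overlap. That of opn1mw2 was higher in each hypoxia library (0.6427 to 0.6563% in hypoxia, 0.4755 to 0.5473% in normoxia). The shares of opn1sw1 (35.7 to 36.1% in hypoxia, 34.8 to 36.1% in normoxia) and opn1lw2 (20.4 to 20.6% in hypoxia, 20.4 to 21.1% in normoxia) overlapped. The shares of this pool are bound to each other, so a higher share of rho must come with lower shares elsewhere in it. The lower shares of opn1sw2 and opn1mw1 are therefore not separate results. By level, both genes overlapped between the groups (log2 fold changes -0.017 and -0.051). How often shares of other genes separate in this way was not examined. Counts were not corrected for transcript length, so these shares do not rank the opsins by number of transcripts.

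To compare photoreceptor classes within a library, log2 ratios of counts were taken for the 10 pairs of opsins and for each opsin over its transducin, 15 ratios in all. With 3 against 4 libraries the smallest p of a two-sided exact permutation test is 0.0286, and no ratio had a Benjamini-Hochberg adjusted p under 0.05. After adjustment over 15 ratios, that threshold could be passed only if most of the ratios reached the smallest p together. The lack of a call is therefore no evidence that the ratios were unchanged. The groups did not overlap in 8 of the 15. The ratios share genes, with rho in most of these 8, so they are not separate results. No such share was taken over ratios of other genes. The ratio of rho to opn1sw2 differed most among the pairs of abundant opsins, with log2 ratios of 1.06, 0.99 and 0.96 in hypoxia, against 0.69, 0.81, 0.69 and 0.75 in normoxia. This is a difference of 0.27 on the log2 scale, with an exact permutation p = 0.0286 (two-sided, adjusted 0.0857). The ratio of rho to opn1lw2 differed by 0.17 (exact permutation p = 0.0286, adjusted 0.0857) and that of rho to opn1sw1 by 0.15 (exact permutation p = 0.0571, adjusted 0.107). In both, each hypoxia library was above each normoxia library.

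Relative to opn1sw1 and opn1lw2, opn1sw2 was lower in each hypoxia library than in any normoxia library. The green cone opsins were not among the ratios tested. The log2 ratio of opn1sw2 to opn1lw2 was -1.22, -1.19 and -1.18 in hypoxia, against -1.06, -1.14, -1.08 and -1.10 in normoxia, a difference of -0.098 (exact permutation p = 0.0286, adjusted 0.0857). The ratio of opn1sw1 to opn1sw2 differed by 0.11 (exact permutation p = 0.0286, adjusted 0.0857). By contrast, the ratio of opn1sw1 to opn1lw2 overlapped between the groups and differed by 0.016 (exact permutation p = 0.83). The ratios to opn1lw1 carry its low counts, and of these rho and opn1sw1 over opn1lw1 did not overlap (differences of 0.44 and 0.29, exact permutation p = 0.0571 for both, adjusted 0.107). The ratios of opn1sw2 and opn1lw2 to opn1lw1 overlapped and differed by 0.17 and 0.27 (exact permutation p = 0.257 and 0.0857, adjusted 0.321 and 0.143).

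**Figure D3:**
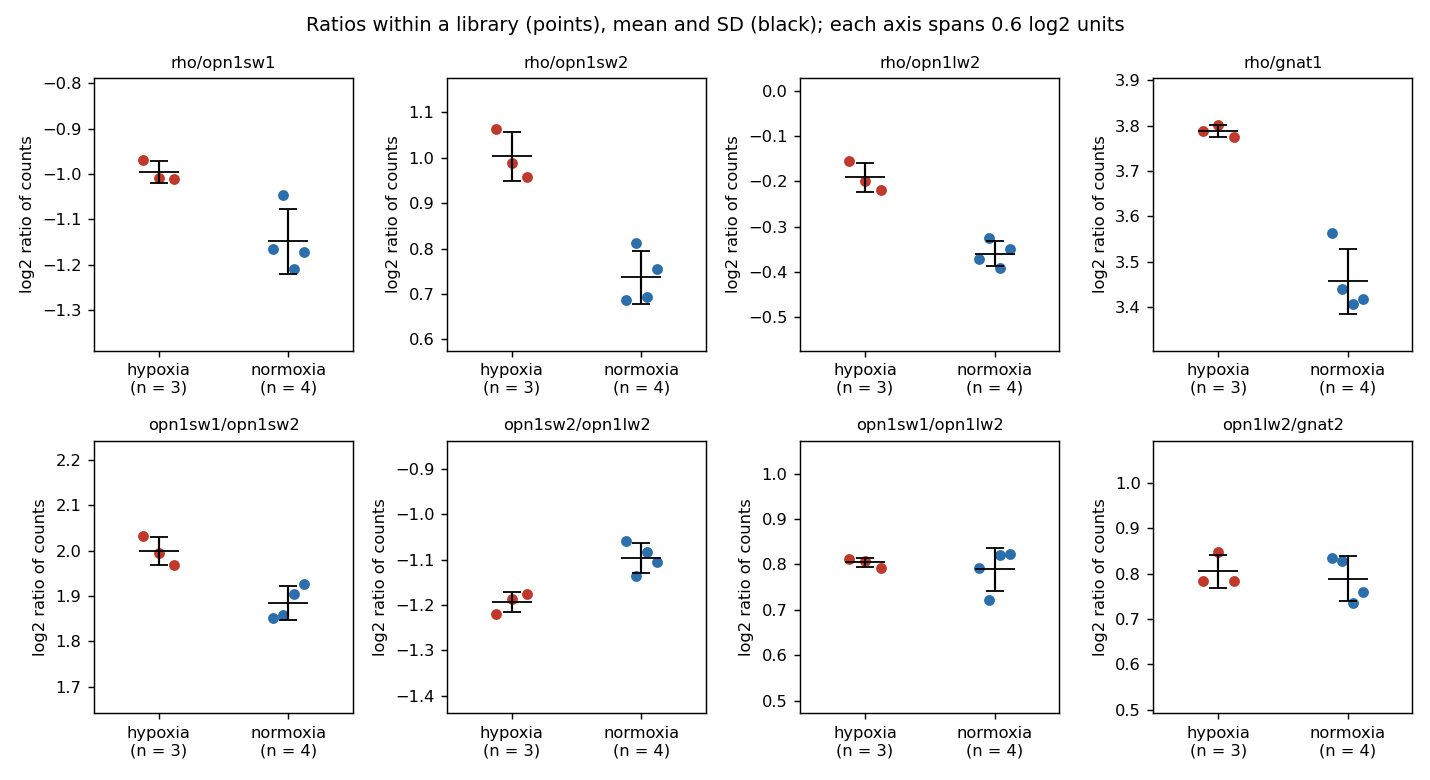
Log2 ratios of counts within each library for 8 of the 15 ratios, in hypoxia (red, n = 3) and normoxia (blue, n = 4), with mean and SD in black and every vertical axis spanning 0.6 log2 units. The points separate in the first 6 panels, most widely for rho over gnat1 (difference 0.33), and overlap for opn1sw1/opn1lw2 and opn1lw2/gnat2.

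Transducin couples each opsin to its cascade. The rod subunit gnat1 had 93.9, 107.5 and 111 CPM in hypoxia, against 96.7, 118, 111 and 118 CPM in normoxia, overlapping groups with a log2 fold change of -0.090 (SE 0.078, 95% confidence interval -0.261 to 0.081, edgeR quasi-likelihood test, Benjamini-Hochberg adjusted p = 0.36). Relative to rho, its counts were 7.24, 7.17 and 7.30% in hypoxia, against 8.46, 9.22, 9.43 and 9.36% in normoxia. The log2 ratio of rho to gnat1 thus differed by 0.33, with no overlap (exact permutation p = 0.0286, adjusted 0.0857). The cone subunit gnat2 had 840.3, 957 and 1027 CPM in hypoxia, against 831, 904, 925 and 948 CPM in normoxia, with a log2 fold change of 0.061 (SE 0.069, 95% confidence interval -0.090 to 0.212, edgeR quasi-likelihood test, Benjamini-Hochberg adjusted p = 0.487). The ratios of opn1sw1, opn1sw2, opn1lw2 and opn1lw1 to gnat2 overlapped between the groups and differed by 0.031, -0.083, 0.016 and -0.25 (exact permutation p = 0.343, 0.171, 0.657 and 0.114).

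The remainder of the phototransduction cascade was taken from lists of known components. Gene symbols in capitals are given as in the name table used, which does not separate the duplicated copies of zebrafish, so an Ensembl identifier is added where needed. Of 12 rod components tested, 6 were higher in hypoxia and 0 lower, with a median log2 fold change of 0.27, beside 24.6% called higher and a median of -0.004 over all genes. The 6 became 4 without hypoxia replicate 3 or with library size scaling and 9 without hypoxia replicate 1. The rod arrestin saga, which shuts off activated rhodopsin, had 95.1, 104 and 117 CPM in hypoxia, against 63.0, 74.4, 70.0 and 74.0 CPM in normoxia, a log2 fold change of 0.59 (SE 0.076, edgeR quasi-likelihood test, Benjamini-Hochberg adjusted p = 0.000184). Its second copy sagb, at means of 124 CPM in hypoxia and 108 CPM in normoxia, changed by 0.20 and was not called (adjusted p = 0.0571 by the same edgeR test). The rod channel subunit CNGA1 (ENSDARG00000012125) rose by 0.49 on the log2 scale. The rod exchanger SLC24A1, which extrudes calcium, rose by 0.38 (adjusted p = 0.0252 by the same edgeR test). Its call was lost without hypoxia replicate 2 (0.32) or 3 (0.34), or normoxia replicate 1 (0.31) or 3 (0.34). It was also lost with library size scaling (0.29).

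Of 18 cone components tested, 12 were higher and 0 lower, with a median log2 fold change of 0.42, again beside 24.6% of all genes called higher. The 12 became 9 without hypoxia replicate 2, 10 without hypoxia replicate 3 and 14 without hypoxia replicate 1. With library size scaling, 11 were higher and 1 lower. The largest change was in pde6ha, the inhibitory subunit of the cone phosphodiesterase, with 64.5, 70.5 and 77.9 CPM in hypoxia, against 15.4, 21.0, 29.7 and 35.3 CPM in normoxia. The hypoxia libraries were all far above the normoxia libraries, which differed among themselves by more than a factor of 2, and the log2 fold change was 1.48 (SE 0.214, edgeR quasi-likelihood test, Benjamini-Hochberg adjusted p = 0.000304). The cone channel subunits cngb3.1 and CNGA3 (ENSDARG00000012297) rose by 0.99 and 0.88 on the log2 scale. The 5 opsins and both transducins had log2 fold changes between -0.20 and 0.24. This range was not particular to them, as rcvrna (0.026), gnb3b (0.12), PDE6C (0.24) and further components also lay in it. The green cone opsin opn1mw2 (0.48) lay above it. The difference between the opsins and transducins and the other components was not tested. Of the 5 recovery components shared by rods and cones, 4 were higher and 0 lower (24.6% and 25.1% over all genes). The 4 became 2 without hypoxia replicate 2, hypoxia replicate 3 or normoxia replicate 2, and with library size scaling or cyclic loess. They included RGS9 (ENSDARG00000045156, 0.48), which switches transducin off, and the guanylate cyclases gucy2f (0.41) and gucy2d (0.23), which restore cyclic GMP. The call for gucy2d was lost without hypoxia replicate 2 (0.21) or 3 (0.18) or normoxia replicate 2 (0.23), and with library size scaling (0.13) or cyclic loess (0.17).

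**Figure D4:**
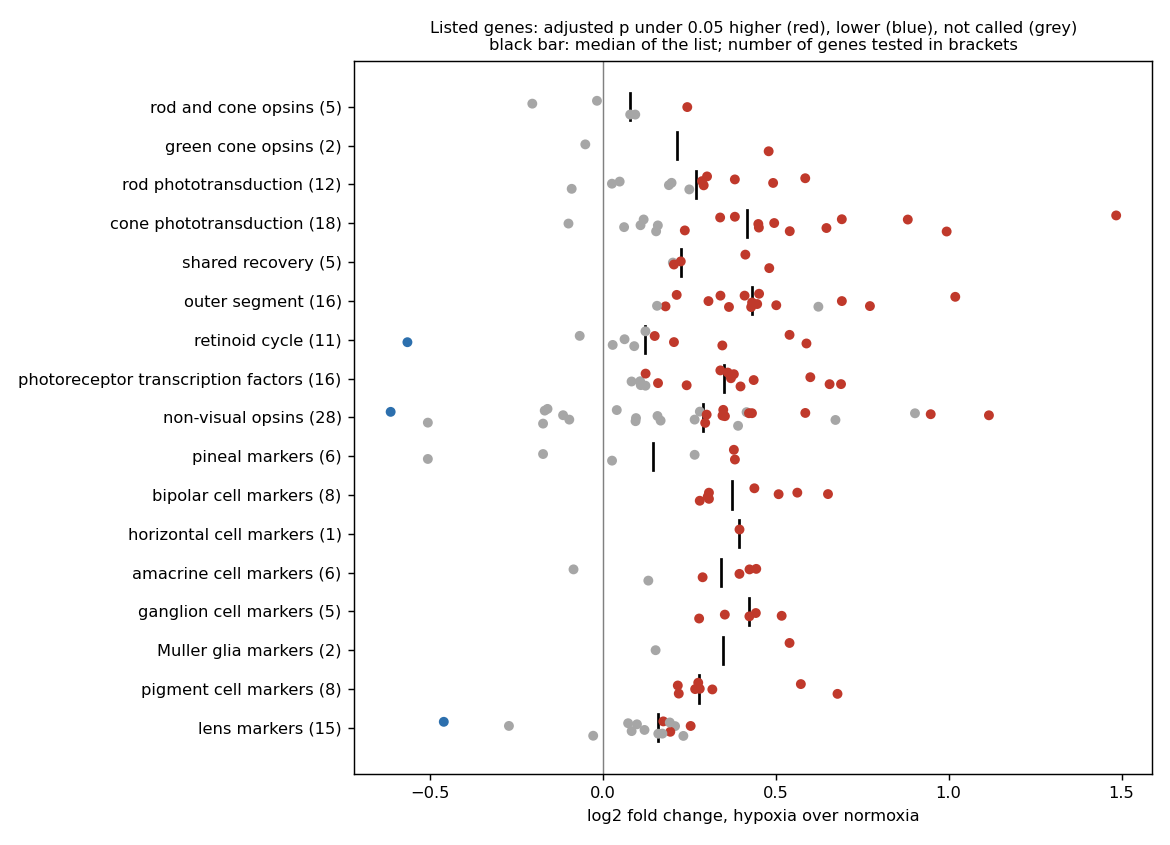
Log2 fold change (hypoxia over normoxia, horizontal axis) of each gene tested, by list (rows), with calls in red (higher) and blue (lower), uncalled genes in grey and the median of the list as a black bar. The row of rod and cone opsins holds 1 called gene of 5 and that of green cone opsins 1 of 2. The row of non-visual opsins holds 10 higher and 1 lower of 28, beside 24.6% higher and 25.1% lower over all genes. The outer segment and cone phototransduction rows have medians of 0.43 and 0.42.

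Opsins are packed into outer segment discs, and 14 of 16 outer segment genes tested were higher and 0 lower (median log2 fold change 0.43), beside 24.6% higher over all genes. The 14 became 9 without hypoxia replicate 2 or hypoxia replicate 3. The outer segment gene rp1l1b and the interphotoreceptor matrix gene IMPG1 rose by 0.77 and 0.69 on the log2 scale. A gene model of eys (ENSDARG00000079519), on 31.1 counts per library on average, rose by 1.02, but its call was lost without hypoxia replicate 2 (0.79) or normoxia replicate 3 (0.92). The other gene model of eys (ENSDARG00000106564), on 37.4 counts, had a log2 fold change of 0.62 and was not called (edgeR quasi-likelihood test, Benjamini-Hochberg adjusted p = 0.077). In the retinoid cycle, which supplies the opsin chromophore, 5 of 11 genes were higher and 1 lower, beside 24.6% and 25.1% of all genes. The 5 became 3 without hypoxia replicate 2 or normoxia replicate 2, and with library size scaling or cyclic loess. The retinol dehydrogenase rdh5 and the retinal-binding protein rlbp1a rose by 0.59 and 0.54 on the log2 scale, whereas rdh12l fell to 2.37, 1.74 and 2.23 CPM in hypoxia, against 3.19, 3.09, 3.26 and 3.001 CPM in normoxia (log2 fold change -0.57).

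Of 16 transcription factors of photoreceptor development, 12 were higher and 0 lower (median log2 fold change 0.35), beside 24.6% higher over all genes. The 12 became 10 without hypoxia replicate 2 or with library size scaling. The retinal homeobox gene rx1 rose by 0.69, THRB, the thyroid hormone receptor required for red cones, by 0.66, and NR2E3, a factor of rod identity, by 0.60 on the log2 scale. The red cone opsins opn1lw2 and opn1lw1, made in the cells that need THRB, had log2 fold changes of 0.079 and -0.20 and were not called.

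Genes listed as markers of the other retinal cells were also examined. In RNA of whole larvae, their expression in the retina is not separated from expression elsewhere in the body, so their values are not specific to retinal cells. All 8 bipolar cell genes, all 5 ganglion cell genes, the 1 horizontal cell gene tested and 4 of 6 amacrine cell genes were higher. The 6 genes listed for horizontal cells and the 5 listed for Muller glia were otherwise ambiguous or unmatched by name. Of 2 genes tested for Muller glia, 1 was higher. It was rlbp1a, counted above in the retinoid cycle, so it is neither a separate result nor particular to glia. No marker was called lower, beside 24.6% higher and 25.1% lower over all genes. The bipolar 8 became 6 without hypoxia replicate 3 or with library size scaling, and the ganglion 5 became 4 without hypoxia replicate 3. The uncalled genes were the amacrine markers PTF1A (log2 fold change -0.085) and SLC6A9 (0.13) and the glial marker GFAP (0.15), and without hypoxia replicate 1 both Muller glia genes were called higher. The summed level of the bipolar genes was 247 to 292 CPM in hypoxia and 187 to 207 CPM in normoxia, and that of the ganglion cell genes 229 to 251 CPM in hypoxia and 179 to 185 CPM in normoxia, without overlap. Examples are the bipolar channel trpm1b (0.65) and the ganglion cell factor POU4F2 (0.52, log2 fold changes). None of the tested markers was at 0 in any library. Over all 155 genes of the lists, lens and pigment cells included, 95 were higher and 3 lower. The part of cell composition in the opsin values was not tested.

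Abundance also moved with the direction of change. Of the 226 genes with a mean of at least 500 CPM, among which are rho, opn1sw1, opn1sw2 and opn1lw2, 133 were higher and 25 lower in hypoxia, with a median log2 fold change of 0.19. Of the 11888 genes under 10 CPM, which include opn1lw1, 1840 were higher and 2448 lower, with a median of -0.035. The log2 fold change of rho, 0.24, was thus near the median of genes of its abundance, while those of opn1sw1, opn1sw2 and opn1lw2 were below it. These bins were chosen after the values were seen, and CPM is not corrected for length.

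**Figure D5:**
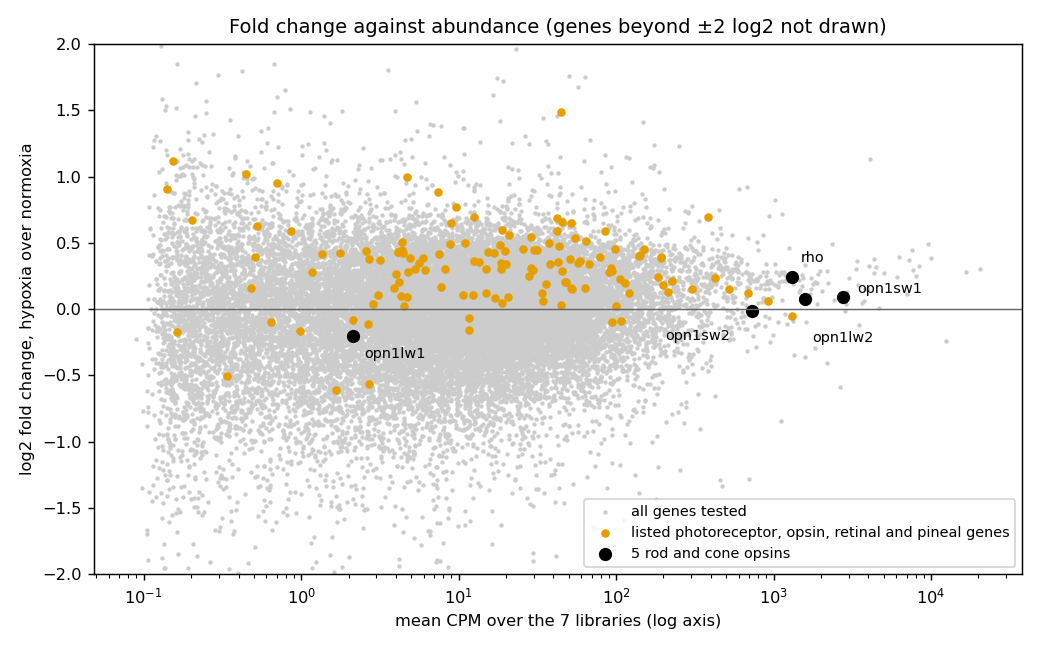
Log2 fold change (hypoxia over normoxia) against mean CPM over the 7 libraries (log axis) for all genes tested (grey), the listed photoreceptor, opsin, retinal and pineal genes (orange) and the 5 opsins (black). Most orange points lie above 0, while the black points of opn1sw1, opn1sw2 and opn1lw2 lie close to 0 among the most abundant genes.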

How the data were processed

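Poly(A) RNA-seq counts of 3 hypoxia and 4 normoxia libraries were analysed, grouped by the sample labels. After trimming (Trimmomatic 0.39), the authors mapped reads to the GRCz11 genome by STAR 2.7.10, using Ensembl release 113, obtained gene counts from featureCounts 2.0.7, and deposited these whole-number counts unnormalized. The strand setting and the treatment of reads that map to several genes are not given in the sources used here, which could affect the duplicated opsins. 

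Genes were filtered (filterByExpr), scaled (TMM) and compared with edgeR 4.0.16 in R 4.3.3 (glmQLFit, glmQLFTest), with Benjamini-Hochberg adjustment over 23716 genes. The authors used DESeq2, which was kept as an alternative (version 1.42.0) together with other scalings, limma 3.58.1 after cyclic loess, other count filters, a log2 threshold of 0.6 inside the test, a replicate block and leaving out each library. The standard error is the absolute log2 fold change over the square root of F. Ratios used counts plus 0.5 and an exact two-sided permutation test over 35 divisions. The code was tested on simulated counts. Intervals are 95% confidence intervals of the log2 fold change, built from the standard error. They reflect variation between pools but are not ranges of the pool values.

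Genes were named by a rule: the opsins, gnat1 and gnat2, and per list up to 3 called genes in each direction with the largest change and a mean count of at least 20. The members and lists were chosen with earlier results of these data known. Symbols came from a name table that covered 23250 of 25049 identifiers. Ambiguous or unmatched list members, such as exorh, rhol, gngt1 and rpe65a, were left out. Gene neighbours and overlaps came from the RefSeq table of GRCz12tu. No sequence or transcript length was used here.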

Additional observations from a re-analysis of the deposited data

How the results depend on the processing

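The call for rho was lost with cyclic loess and limma (0.076) and with the log2 threshold of 0.6 inside the test (estimate 0.24, adjusted p = 1 by edgeR's glmTreat with Benjamini-Hochberg adjustment), and held in the other 14 of 16 alternatives. Cyclic loess gave -0.11 for opn1sw1, -0.10 for opn1lw2, -0.092 for GNAT2 and -0.16 for opn1sw2, so that 1 opsin was called lower and 0 higher. Library size scaling gave 0.15 for rho, where the call only just held (edgeR quasi-likelihood test, Benjamini-Hochberg adjusted p = 0.0481). The same scaling gave -0.0033 for opn1sw1, -0.018 for opn1lw2 and -0.035 for GNAT2, with 6 listed genes lower and 69 higher. It called 3995 of all genes higher and 8072 lower, in place of 5840 and 5950. The threshold inside the test left 0 opsins higher and 2 listed genes higher (pde6ha and cngb3.1) and 0 lower, and 133 higher and 167 lower over all genes. With the threshold of 0.6 on the estimate, 0 opsins were higher. Leaving out 1 library gave 0.20 to 0.31 for rho, 0.041 to 0.18 for opn1sw1, -0.085 to 0.080 for opn1sw2, 0.021 to 0.17 for opn1lw2 and -0.27 to -0.12 for opn1lw1, 1 to 3 opsins higher, and 70 to 104 listed genes higher and 1 to 4 lower. Without hypoxia replicate 1, opn1mw1 was 0.021 and opn1sw2 0.080, and GNAT2 ranged from -0.0093 (without hypoxia replicate 3) to 0.138. The ratio of opn1lw2 to gnat2 ranged from -0.0056 to 0.031 over the libraries left out, with -0.0018 without normoxia replicate 3, and that of opn1sw1 to opn1lw2 from -0.0072 to 0.027. For the other 46 named genes, 646 of 736 values kept direction and side of the threshold, 85 lost the call, 1 gained one and 4 changed sign. Many of the 85 came from the log2 threshold of 0.6 inside the test, which is stricter and left the estimates unchanged. The cause of the other shifts was not tested. Same-numbered libraries did not deviate together in every pair (correlations 0.19, 0.052 and 0.021), so the numbers were not taken as pairs. With the replicate block on replicates 1 to 3, rho was 0.26, opn1sw1 0.115, opn1sw2 -0.013, opn1lw2 0.088 and opn1lw1 -0.12, with 1 opsin higher and 0 lower. Depth limits opn1lw1, opn1mw3 and opn1mw4, and whole-body RNA limits what can be said of any cell type.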

Other observations

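Opsins outside the visual set were measured at levels below those of the abundant visual opsins. The highest was OPN4 (ENSDARG00000007553), at means of 33.4 CPM in hypoxia and 27.2 CPM in normoxia. Several of them were above the visual opsin opn1lw1, at means of 1.97 CPM in hypoxia and 2.27 CPM in normoxia. Of 28 non-visual opsins tested, 10 were higher in hypoxia and 1 lower, with a median log2 fold change of 0.29, beside 24.6% higher and 25.1% lower over all genes. The 10 became 5 without hypoxia replicate 3 or with library size scaling. The melanopsin opn4xa, on 49.4 counts per library on average, rose by 0.95, and OPN5, a neuropsin, had 1.53, 1.03 and 1.27 CPM in hypoxia, against 2.41, 1.67, 1.79 and 1.97 CPM in normoxia (log2 fold change -0.61, edgeR quasi-likelihood test, Benjamini-Hochberg adjusted p = 0.0131). The call for OPN5 was lost without hypoxia replicate 2 (-0.49). Of 6 pineal genes, 2 were higher and 0 lower, a share near the 24.6% of all genes called higher. They included ASMT, which makes melatonin (0.38). The 2 became 1 without hypoxia replicate 2, hypoxia replicate 3, normoxia replicate 1 or normoxia replicate 3, and with library size scaling. Of the other genes the naming rule gave from these lists, tmtops3b (0.59) and bsx (0.38) each lost the call in most of the analyses that left out 1 library, and the 1 non-visual opsin called lower became 0 without hypoxia replicate 2 and 2 without hypoxia replicate 3.

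Elsewhere in the eye, all 8 pigment cell genes were higher, among them SLC45A2 (0.68) and OCA2 (0.57), transporters of the melanosome. These genes are also expressed in skin melanophores, so their values are not specific to the retinal pigment epithelium. The 8 became 6 with library size scaling and 7 without hypoxia replicate 2, normoxia replicate 3 or normoxia replicate 4. Of 15 lens genes, 3 were higher and 1 lower, no larger a share than the 24.6% and 25.1% of all genes. The 3 became 0 without hypoxia replicate 2 or hypoxia replicate 3 or with library size scaling, 1 without normoxia replicate 3 or with cyclic loess, 5 without normoxia replicate 2, and 6 without hypoxia replicate 1 or with DESeq2. The 1 lower became 2 without hypoxia replicate 1 or normoxia replicate 3 or with library size scaling. The lower one, BFSP1, a lens filament gene, had 64.6, 42.4 and 43.3 CPM in hypoxia, against 75.1, 71.0, 61.5 and 68.1 CPM in normoxia (log2 fold change -0.46), and its call was lost without hypoxia replicate 2 (-0.35).

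The genes whose log2 CPM followed each opsin most closely over the 7 libraries were ranked among 20602 genes, as a description. For rho they included PPFIA3 (Pearson r = 0.994) and crygm2d2 (0.993), for opn1sw1 HS6ST1 (0.9748), for opn1sw2 GIPC3 (0.950), for opn1lw2 ENSDARG00000114036 (0.992) and for opn1lw1 armc10 (0.988). All points share libraries and their scaling.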
